A study of Homo sapiens with 4 samples.

Results

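The genes described here encode a death ligand, a death receptor, initiator and inflammatory caspases, the kinases of necroptosis and a pore-forming gasdermin. They are TNFSF10, FAS, CASP8, RIPK1, RIPK3, MLKL, CASP1, CASP4 and GSDMD, 9 genes of the 27685 in the deposited tables. They were chosen by gene symbol, with earlier results of these data known. Together they have 38 annotated transcripts of 63714, and the estimated reads of a gene's transcripts were summed. All 9 genes passed the filter on low reads that left 14868 genes to be tested.

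RNA was measured by poly(A) RNA-seq in HT-29, a human colorectal adenocarcinoma cell line used as a model of colonic epithelium. Cells stably transduced with a pMSCV retroviral vector for TRIM40 with an N-terminal Myc tag (labelled TRIM40 overexpression and called Myc-TRIM40 here) were compared with cells given the control vector (labelled WT). Both were untreated and both went through puromycin selection, so each condition is a selected population of 1 cell line under a viral promoter and not a model of the level that TRIM40 has in tissue. Each condition has 2 libraries, 1 from each of 2 independent experiments, and the experiments are numbered as the labels number them.

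TRIM40 itself was absent from both control libraries (0 reads) and had 272646 reads in Myc-TRIM40 cells of the first experiment and 110665 in those of the second. Library totals lay between 60954602 and 67424698 reads. Of 10 colon epithelial markers, 9 had an FPKM (reads scaled to transcript length and library total) of at least 1 in every library, and CDX1 was below 1 in all 4. Of 5 leukocyte markers, CD14 and CD68 were at 1 or above and CD3E and MS4A1 had 0 reads. PTPRC had 4 and 0 reads in control and Myc-TRIM40 of experiment 1 and 0 and 3 in experiment 2. The summed level of the list was 8.43 and 8.48 FPKM in the control libraries and 14.2 and 9.25 FPKM in the Myc-TRIM40 libraries. Most of that sum was CD68, at 6.99 and 5.86 FPKM in the controls and 11.9 and 7.17 FPKM in the Myc-TRIM40 libraries. The 4 fibroblast and 2 endothelial markers were all below 1 FPKM. The part of these markers in the results was not tested.

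In extrinsic cell death, a ligand such as TRAIL or Fas ligand clusters its receptor, and the adaptor FADD recruits caspase-8, which starts a proteolytic cascade. Where caspase-8 does not act, RIPK1 and RIPK3 can form a complex that phosphorylates MLKL, which then breaches the plasma membrane in necroptosis. In pyroptosis, caspase-1 (activated by inflammasomes) or caspase-4 (activated by intracellular lipopolysaccharide) cleaves gasdermin D, whose fragment forms membrane pores, and intestinal epithelial cells use these pathways to expel infected cells.

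The 9 genes spanned a wide range of levels in HT-29 cells, and the range was far larger than any difference between conditions. In the control library of experiment 1, CASP4 was highest at 48.8 FPKM, followed by GSDMD at 22.1, CASP8 at 13.3, RIPK1 at 12.2, MLKL at 11.7, RIPK3 at 6.63, TNFSF10 at 4.52, FAS at 2.06 and CASP1 at 0.201. In the control library of experiment 2 the order was the same except that MLKL (12.1 FPKM) stood above RIPK1 (8.97 FPKM). RIPK1 and MLKL were therefore neighbors whose order did not hold between experiments. FPKM was normalized separately in the 2 experiments, so the FPKM ratios given per gene were taken within an experiment. Where the groups are compared over both experiments, reads scaled to the same effective library total are used.

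**Figure D1:**
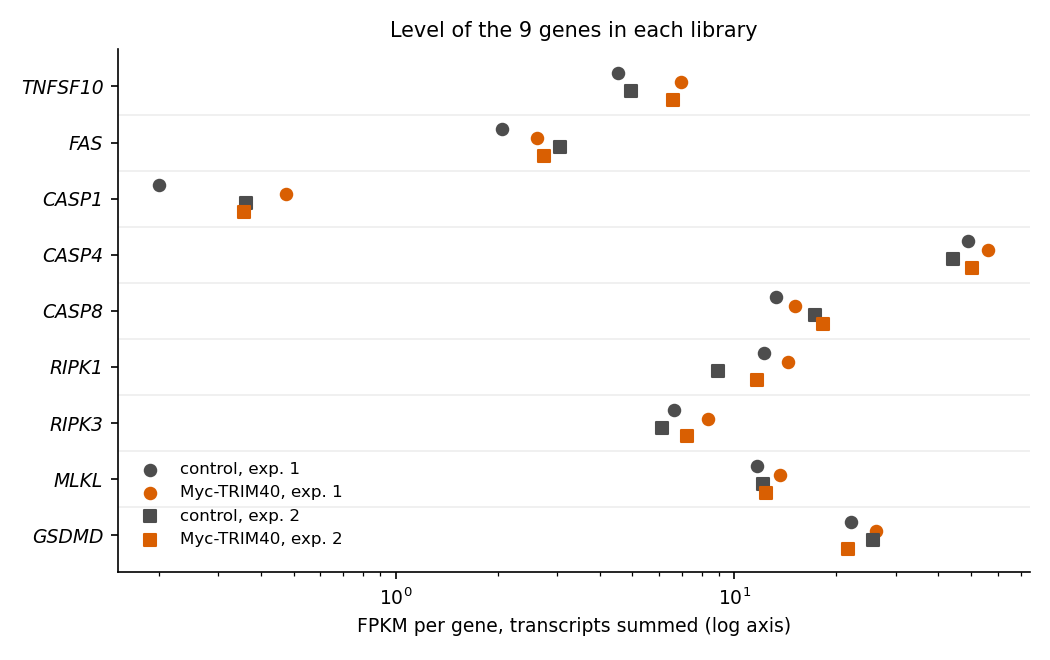
FPKM of each of the 9 genes (log axis), with 1 point per library, circles for experiment 1 and squares for experiment 2, gray for control vector and orange for Myc-TRIM40. CASP4 sits between 44.2 and 56.2 and CASP1 between 0.201 and 0.476, and for most genes the 4 points lie close together.

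None of the 9 genes passed the test between Myc-TRIM40 and control vector. With edgeR's quasi-likelihood test on reads, the experiment number as a block and Benjamini-Hochberg adjustment over 14868 genes, 0 of 9 passed an adjusted p of 0.05, and 0 of 9 had an unadjusted p under 0.05. DESeq2 also called 0 of 9. Over all genes tested, edgeR called 0.0404% higher and 0.0202% lower, 3.41% were higher and 1.13% were lower with p under 0.05 before adjustment, and DESeq2 called 0.363%. The log2 fold changes ran from -0.07 (GSDMD) to 0.60 (CASP1) with a median of 0.11, against a median of 0.04 over all genes tested. The design left 1 residual degree of freedom, and edgeR's test added prior degrees of freedom estimated from all genes (median 7.44). The 95% intervals of the 9 genes used 8.44 degrees of freedom in total and were wide. An exact permutation test on 2 and 2 libraries that ignores the block has a smallest two-sided p of 0.333. Permuting within experiments allows fewer arrangements, so its smallest p is larger. Nothing in the labels says that the experiments used separately made cell populations, so p-values measure the spread between these libraries. In bulk RNA, a change in the share of cells that express a gene and a change in RNA per cell cannot be told apart.

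The ratios of the 9 genes were not alike in the 2 experiments. In experiment 1 the ratio of Myc-TRIM40 to control, on reads normalized by edgeR's TMM factors, was above 0 on the log2 scale for 9 of 9 genes, with a median of 0.21, against 49.8% of all genes tested and a median of 0.00. In experiment 2 it was above 0 for 4 of 9, with a median of -0.05, against 51.4% and a median of 0.03. The same 4 genes, TNFSF10, CASP4, RIPK1 and RIPK3, were thus above 0 in both experiments, where 28.0% of all genes tested were. Because the 9 genes were chosen with earlier results of these data known, these shares only describe them. The sign in experiment 2 depended on the scale, because CASP8 and MLKL were above 0 there on FPKM + 1 and on reads per library total (6 of 9 genes), and only GSDMD was below 0 on TPM + 1 (8 of 9 above), a scale on which the median of all genes tested was itself 0.27. The difference between the experiments was not tested, since each has 1 library per condition.

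**Figure D2:**
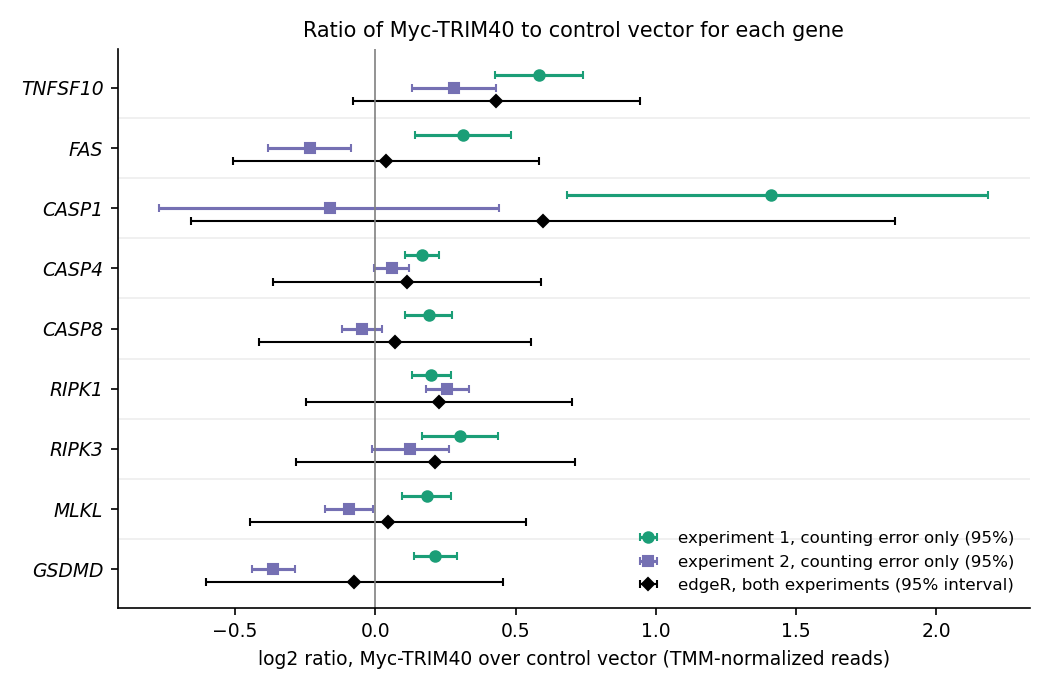
Log2 ratio of Myc-TRIM40 to control vector for each gene, on TMM-normalized reads. Circles are experiment 1 and squares experiment 2, with 95% exact intervals for counting error only, and diamonds are the edgeR log2 fold change over both experiments with its 95% interval. All 9 circles lie above 0 and 4 of the 9 squares do, and every edgeR interval spans 0.

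TNFSF10, which encodes the death ligand TRAIL, had the highest log2 fold change of the 9 genes after CASP1. The gene (Entrez gene 8743, hg19 chromosome 3 from 172223298 to 172241297) had 546 reads in the control and 840 in Myc-TRIM40 of experiment 1, and 670 and 821 in experiment 2. As TMM-normalized RPM (reads scaled to the same effective library total) these were 8.94 and 13.4, then 10.5 and 12.8, so both Myc-TRIM40 libraries were above both controls. The log2 ratio was 0.58 in experiment 1 (95% exact counting interval 0.43 to 0.74) and 0.28 in experiment 2 (0.13 to 0.43). These intervals cover counting error only, not the spread between cultures. The edgeR log2 fold change was 0.43 (SE 0.22, 95% interval -0.08 to 0.94, adjusted p = 0.888, Benjamini-Hochberg), a 1.35-fold difference that did not pass the test. Most reads in every library were assigned to the transcript NM_003810, with 461 and 691 reads in experiment 1 and 616 and 743 in experiment 2. The shorter NM_001190942 had 32 and 99 reads in experiment 1 and 0 reads in both libraries of experiment 2.

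TNFSF10 is a textbook interferon-inducible gene, and the promoters of the 9 genes were read for the core of the interferon-stimulated response element. The core searched was GAAA, any 2 bases and GAAA, on both strands, in windows of 250 bases before to 50 after each annotated start in RefSeq's GRCh38.p14 table. Of 35116 such windows, 3.57% held it. The table had 12 windows for 6 of the genes (TNFSF10, FAS, CASP4, CASP8, RIPK1 and MLKL), and 4 windows of 3 genes held the core, with 2 of the RIPK1 windows sharing 1 site. The stretches around the 3 sites are shown to place the letters beside the values of TNFSF10, RIPK1 and CASP8, 5′ to 3′ on the gene's strand, with the core in capitals. It reads as its reverse complement in each. A further RIPK1 window, chr6:3063717-3064016, held no core. Both measured RIPK1 transcripts start at 3064122 of hg19. By number this is nearer the window without a core than the 2 with it, chr6:3068128-3068427 and chr6:3068244-3068543. Positions were not converted between the builds, so which GRCh38 window holds that start was not tested.
TNFSF10, chr3:172523558-172523667, minus strand, core from -187 to -178 of the start: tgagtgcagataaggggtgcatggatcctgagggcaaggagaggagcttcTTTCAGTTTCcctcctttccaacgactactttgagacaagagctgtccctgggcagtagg
RIPK1, chr6:3068261-3068370, plus strand, core from -67 to -58 of the nearer start: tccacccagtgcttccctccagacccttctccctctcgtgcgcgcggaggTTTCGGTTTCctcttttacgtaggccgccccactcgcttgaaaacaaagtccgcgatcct
CASP8, chr2:201233410-201233482, plus strand, core from -3 to 7 across the start: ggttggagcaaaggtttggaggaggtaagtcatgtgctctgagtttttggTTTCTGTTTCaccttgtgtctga
The core of the gamma-activated site, TTC, any 3 bases and GAA, was in 1 of the 12 windows, that of CASP8 (7.66% of all windows). A match of letters is a description, not evidence that a factor binds. Of the 3 genes with a core in at least 1 window, TNFSF10 and RIPK1 had ratios above 0 in both experiments. CASP8 did not on TMM-normalized reads, while CASP4, whose window held no core, had ratios above 0 in both. RIPK3 also had ratios above 0 in both, but no window was read for it.

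FAS, the receptor of Fas ligand, had ratios of opposite sign in the 2 experiments. It lies on hg19 chromosome 10 from 90750316 to 90776818 (Entrez gene 355) and had 505 and 644 reads in control and Myc-TRIM40 of experiment 1 and 810 and 695 in experiment 2. The log2 ratio was 0.31 (95% exact counting interval 0.14 to 0.48) and then -0.23 (-0.38 to -0.09), and the control of experiment 2 was the highest of the 4 libraries at 12.7 TMM-normalized RPM. The edgeR log2 fold change was 0.04 (SE 0.24, adjusted p = 0.986, Benjamini-Hochberg). FAS overlaps ACTA2, which had between 52 and 139 reads in a library, and whether reads were divided between the 2 genes was not tested.

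The transcripts given the reads of FAS also differed between libraries. NM_000043, the full-length receptor, took 81.0% of them in the control and 77.0% in Myc-TRIM40 of experiment 1, and 37.7% and 74.0% in experiment 2. NM_152871, which lacks 1 coding exon and encodes a soluble form without the transmembrane segment, took 0 of 505 reads (up to 0.728% by an exact binomial interval) in the control of experiment 1 and 8.54% in Myc-TRIM40, then 27.3% and 8.78% in experiment 2. The control of experiment 2 therefore stood apart from the other 3 libraries, and the 2 control libraries held the lowest and the highest share of this transcript. The skipped exon is printed because it is the coding stretch by which such reads can be told apart. It is exon 6 of the 9 exons of NM_000043 in GENCODE, 63 bases at chr10:89010753-89010815 of GRCh38 on the plus strand.
FAS exon 6: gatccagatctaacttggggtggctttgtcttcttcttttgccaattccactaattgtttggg
The remaining FAS reads went to other transcripts, most of them annotated as non-coding, which changed from library to library, such as NR_028034 (0, 22, 149 and 0 reads in control and Myc-TRIM40 of experiment 1 and then of experiment 2) and NR_135314 (0, 28, 0 and 120 reads). The counts per transcript are estimates from short reads, and their assignment was not tested.

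CASP8, the initiator caspase that FADD recruits, had ratios close to 0. It had 2163 and 2535 reads in experiment 1 and 3257 and 3184 in experiment 2 (Entrez gene 841, hg19 chromosome 2 from 202098166 to 202152434). Both libraries of experiment 2 were above both of experiment 1, at 51.1 and 49.5 against 35.4 and 40.4 TMM-normalized RPM. The log2 ratio was 0.19 (95% exact counting interval 0.11 to 0.27) in experiment 1 and -0.05 (-0.12 to 0.03) in experiment 2, where it was 0.08 on FPKM + 1. The edgeR log2 fold change was 0.07 (SE 0.21, 95% interval -0.41 to 0.56).

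Within CASP8, 3 transcripts took shares whose conditions did not overlap, in the same direction in both experiments. NM_033355 took 20.1% of the gene's reads in the control and 24.3% in Myc-TRIM40 of experiment 1, and 20.3% and 26.9% in experiment 2. The non-coding NR_111983 took 10.3% and 15.3%, then 10.4% and 14.6%. NM_033356 took 18.4% and 10.0%, then 16.1% and 12.1%, so its Myc-TRIM40 libraries were the lower ones. The 95% exact binomial intervals of NM_033356 were 16.7% to 20.1% and 8.88% to 11.3% in experiment 1, and 14.8% to 17.4% and 10.9% to 13.2% in experiment 2. The most abundant transcript in all 4 libraries, NM_001080124, took between 26.1% and 36.5% and its conditions overlapped. Over the 7 genes of the group with at least 2 transcripts at a mean of 10 reads or more, the shares of 7 of 23 transcripts did not overlap between conditions (in either direction), near the 29.3% found over 27899 such transcripts of all genes tested.

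**Figure D3:**
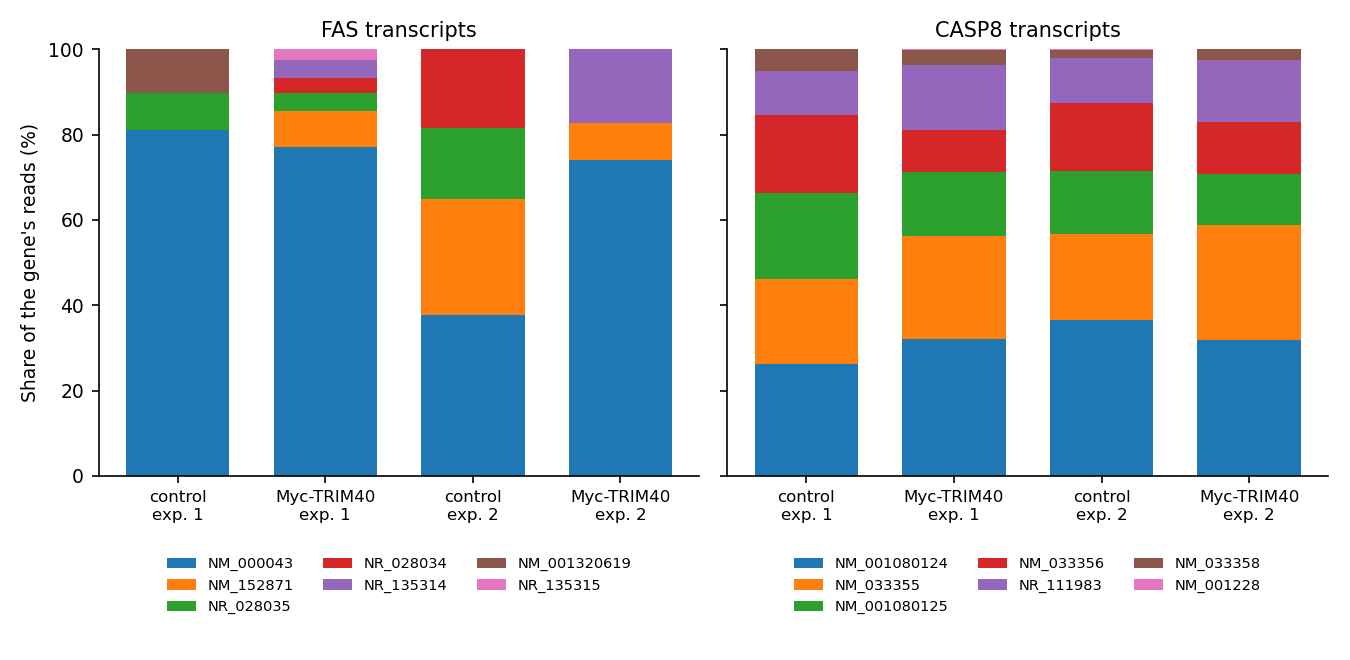
Share of the reads of FAS (left) and CASP8 (right) assigned to each transcript, in percent, with 1 stacked bar per library. In FAS the control of experiment 2 stands apart, with 37.7% of reads on NM_000043 against 74.0% to 81.0% elsewhere, while the 4 CASP8 bars hold the same 6 main transcripts.

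RIPK1, the kinase that passes death receptor signals to survival, apoptosis or necroptosis, had similar ratios in the 2 experiments. It had 3129 and 3690 reads in experiment 1 and 2551 and 3076 in experiment 2 (Entrez gene 8737, hg19 chromosome 6 from 3064122 to 3115421). The log2 ratios were 0.20 (95% exact counting interval 0.13 to 0.27) and 0.26 (0.18 to 0.33). The groups nevertheless overlapped, since the control of experiment 1, at 51.3 TMM-normalized RPM, was above the Myc-TRIM40 library of experiment 2 at 47.8. The edgeR log2 fold change was 0.23 (SE 0.21, 95% interval -0.25 to 0.70, adjusted p = 0.888). NM_003804 took at least 98.8% of the reads in every library.

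RIPK3, the partner kinase of RIPK1 in necroptosis, had 797 and 1010 reads in experiment 1 and 814 and 896 in experiment 2, all on 1 annotated transcript (Entrez gene 11035, hg19 chromosome 14 from 24805227 to 24809242). Both Myc-TRIM40 libraries were above both controls, at 16.1 and 13.9 against 13.1 and 12.8 TMM-normalized RPM. The log2 ratios were 0.30 (95% exact counting interval 0.17 to 0.44) and 0.13 (-0.01 to 0.26), and the edgeR log2 fold change was 0.21 (SE 0.22, 95% interval -0.28 to 0.71, adjusted p = 0.893).

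MLKL, the membrane-breaching effector of necroptosis, had 2020 and 2356 reads in experiment 1 and 2322 and 2197 in experiment 2 (Entrez gene 197259, hg19 chromosome 16 from 74705753 to 74735046). Its log2 ratio was 0.18 (95% exact counting interval 0.10 to 0.27) and then -0.09 (-0.18 to -0.01) on TMM-normalized reads, and 0.03 on FPKM + 1 in experiment 2. The 4 libraries lay within 33.1 to 37.6 TMM-normalized RPM, and the edgeR log2 fold change was 0.05 (SE 0.22, 95% interval -0.45 to 0.54).

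CASP4, which senses cytosolic lipopolysaccharide, was the highest of the 9 genes in every library. It had 4035 and 4651 reads in experiment 1 and 4051 and 4258 in experiment 2 (Entrez gene 837, hg19 chromosome 11 from 104813594 to 104839325). The lowest Myc-TRIM40 library, at 66.2 TMM-normalized RPM, was only just above the highest control at 66.1, so the groups did not overlap by the narrowest of margins. The log2 ratios were 0.17 (95% exact counting interval 0.11 to 0.23) and 0.06 (-0.004 to 0.12), and the edgeR log2 fold change was 0.11 (SE 0.21, 95% interval -0.36 to 0.59). With TNFSF10 and RIPK3, CASP4 made up the 3 of 9 genes whose Myc-TRIM40 libraries were both above both controls, a pattern found in 11.0% of all genes tested.

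CASP1, the inflammasome caspase, was barely detected. It had 22 and 60 reads in experiment 1 and 51 and 46 in experiment 2 (Entrez gene 834, hg19 chromosome 11 from 104896237 to 104905884), or between 0.201 and 0.476 FPKM. The log2 ratio was 1.41 in experiment 1, with a 95% exact counting interval of 0.68 to 2.18, and -0.16 in experiment 2, with an interval of -0.77 to 0.44. The larger ratio rests on the control of experiment 1, the lowest of the 4 libraries. The edgeR log2 fold change of 0.60 (SE 0.55, 95% interval -0.66 to 1.85, adjusted p = 0.888) had the widest interval of the 9 genes, and the counting intervals of the 2 experiments did not overlap.

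GSDMD, the substrate of both inflammatory caspases, had the second highest level and opposite ratios in the 2 experiments. It had 2489 and 2966 reads in experiment 1 and 3127 and 2453 in experiment 2 (Entrez gene 79792, hg19 chromosome 8 from 144635557 to 144645231). The log2 ratio was 0.21 (95% exact counting interval 0.14 to 0.29) and then -0.36 (-0.44 to -0.29), and experiment 2 was below 0 on every scale computed. The edgeR log2 fold change was -0.07 (SE 0.23, 95% interval -0.60 to 0.45, adjusted p = 0.968). The transcript NM_001166237 took 9.44% and 9.61% of the reads in experiment 1 and 0.0959% and 0.245% in experiment 2, so this share followed the experiment and not the condition. GSDMD overlaps LOC100310756, which had 565 and 748 reads in experiment 1 and 536 and 532 in experiment 2, and its part in the values of GSDMD was not tested.

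By the ratio of FPKM + 1, 0 of the 9 genes changed at least 1.5-fold in the same direction in both experiments, where 0.457% of all genes tested were higher and 0.0874% lower by that rule. TNFSF10 came nearest, with ratios of 1.44 and 1.27. This scale understates changes of genes with low FPKM such as CASP1, whose ratios were 1.23 and 0.996.

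The other genes of these pathways were taken from 5 lists with 77 genes, of which 59 could be tested. These lists too were chosen with earlier results of these data known. At an adjusted p of 0.05, 0 of 59 passed in edgeR with the block, while 5 were higher and 0 were lower with p under 0.05 before adjustment (3.41% and 1.13% of all genes tested), and 1 passed in DESeq2 (0.363% of all genes tested). The median log2 fold change was 0.14 over the 59 genes, and by list it was 0.06 over 6 death ligands and receptors, 0.17 over 15 genes of the signaling complexes, -0.01 over 19 apoptosis genes, 0.23 over 6 necroptosis genes and 0.19 over 13 genes of inflammasome and pyroptosis. The ratio was above 0 in both experiments for 26 of the 59 genes, against 28.0% of all genes tested. The 5 genes at an unadjusted p under 0.05, named after their values were seen, were BIRC3, TNFAIP3, CYLD, IL1RN and GBP1.

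**Figure D4:**
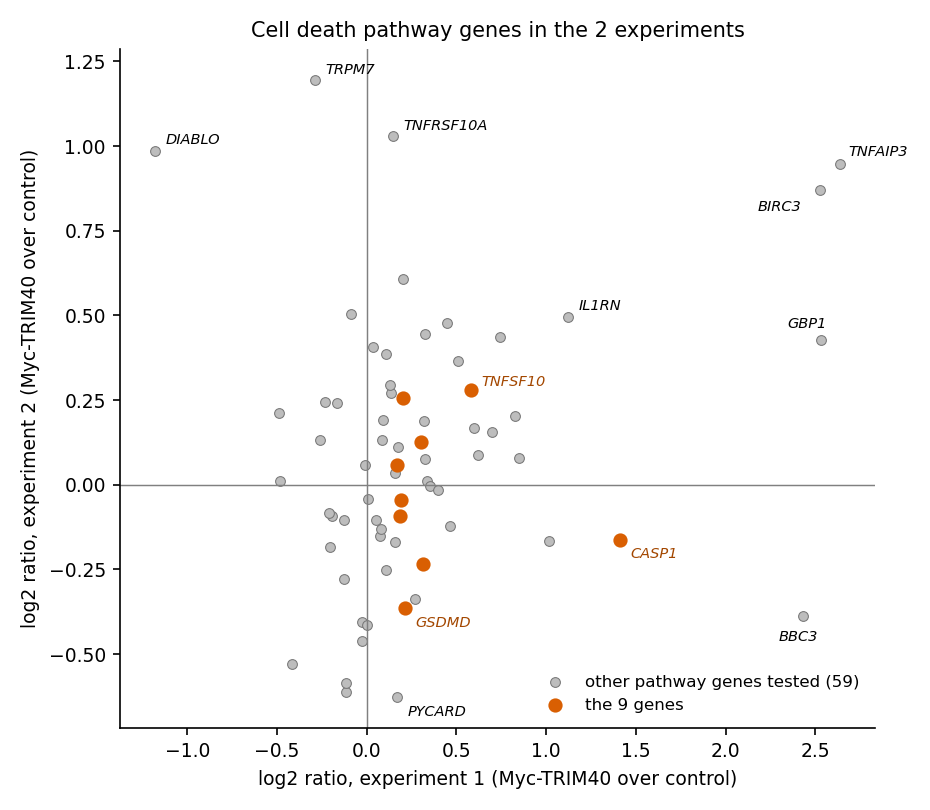
Log2 ratio of Myc-TRIM40 to control vector in experiment 1 (x axis) and experiment 2 (y axis), on TMM-normalized reads, for the 9 genes (orange) and the 59 other pathway genes tested (gray). The 9 genes lie to the right of 0 in experiment 1 and on both sides of 0 in experiment 2, while TNFAIP3, BIRC3 and GBP1 lie farthest to the upper right, BBC3 (2.43 and -0.39) to the lower right, and DIABLO and TRPM7 (-0.29 and 1.19) to the upper left.

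BIRC3, which encodes the ubiquitin ligase cIAP2 that holds RIPK1 in its survival complex, was the pathway gene called by DESeq2. It had 221 and 1308 reads in experiment 1 and 353 and 651 in experiment 2, and both Myc-TRIM40 libraries were above both controls. The log2 ratios were 2.53 and 0.87, with a log2 fold change of 1.69 in edgeR (SE 0.38, adjusted p = 0.444, Benjamini-Hochberg) and an adjusted p = 0.00916 in DESeq2. TNFAIP3, the A20 deubiquitinase that restrains the same complex, had log2 ratios of 2.64 and 0.95 and adjusted p-values of 0.469 in edgeR and 0.0736 in DESeq2. BIRC3 and TNFAIP3 are both known targets of NF-κB.

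Among the receptors, both TRAIL receptors with a death domain had ratios above 0 in both experiments. TNFRSF10B (DR5) had 15.6 and 20.03 FPKM in control and Myc-TRIM40 of experiment 1 and 9.13 and 13.5 FPKM in experiment 2, with a log2 fold change of 0.38 (SE 0.21, adjusted p = 0.888 in edgeR). TNFRSF10A (DR4) had 6.29 and 7.13 FPKM in experiment 1 and 2.05 and 4.56 FPKM in experiment 2, with log2 ratios of 0.15 and 1.03, and its control of experiment 2 was the lowest library. For both genes the groups overlapped. The control of experiment 1 was above Myc-TRIM40 of experiment 2, at 65.8 against 55.5 TMM-normalized RPM for TNFRSF10B and 11.3 against 7.98 for TNFRSF10A. TNFRSF10D, another TRAIL receptor gene, had log2 ratios of -0.49 and 0.01. The TNF receptor gene TNFRSF1A, between 36.1 and 42.0 FPKM, had log2 ratios of 0.01 and -0.04. FASLG had 2 reads in the control library of experiment 1 and 0 in the other 3, so no level could be given for the ligand of FAS.

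Adaptors and regulators of the death-inducing complex had ratios of either sign. FADD had log2 ratios of -0.03 and -0.40 and TRADD, the adaptor of the TNF receptor, of -0.12 and -0.61, while CASP10, a relative of CASP8, had 0.51 and 0.37 at a low level of 1.09 to 1.66 FPKM. CFLAR, which encodes the caspase-8 inhibitor c-FLIP, had log2 ratios of 0.62 and 0.09 on reads, but in experiment 2 it had 16.9 FPKM in the control and 11.9 in Myc-TRIM40, so reads and FPKM gave opposite directions there. None of these 4 genes passed the test, with adjusted p-values of 0.888 or 0.892 in edgeR.

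Among apoptosis genes, BID, which links caspase-8 to mitochondria, had log2 ratios of -0.03 and -0.46. DIABLO, whose product SMAC binds inhibitor of apoptosis proteins, had 25.6 FPKM in the control and 11.1 in Myc-TRIM40 of experiment 1, and 13.0 and 27.9 FPKM in those of experiment 2. It was the only pathway gene past 1.5-fold in opposite directions, as 0.296% of all genes tested were. DIABLO overlaps another gene with reads, as do CFLAR, TNFRSF10B and PYCARD. Whether reads were divided between such genes was not tested.

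In the necroptosis list, ZBP1, an interferon-inducible nucleic acid sensor that engages RIPK3, was not tested because its reads were too few. It had 0 reads in both control libraries and 97 (experiment 1) and 5 (experiment 2) in those with Myc-TRIM40. The 95% exact counting interval of its log2 ratio had a lower limit of 4.65 in experiment 1 and of -0.14 in experiment 2, so the 5 reads of experiment 2 did not set it apart from its control. TICAM1, the TRIF adaptor that can also engage RIPK3, had 4.04 and 7.36 FPKM in experiment 1 and 3.12 and 3.92 FPKM in experiment 2, with a log2 fold change of 0.52 (SE 0.24, adjusted p = 0.888 in edgeR).

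In the pyroptosis list, 13 of 26 genes could not be tested. CASP5, CARD16 (which resembles the start of CASP1) and GSDME had 0 reads in all 4 libraries, so each was at most 3 reads per library by counting error. PYCARD, the inflammasome adaptor ASC, had 25.6 and 29.3 FPKM in control and Myc-TRIM40 of experiment 1 and 34.9 and 24.7 FPKM in experiment 2, the same pattern of signs as GSDMD. GSDMB had 5.46 and 10.1 FPKM in experiment 1 and 5.28 and 6.07 FPKM in experiment 2, with log2 ratios of 0.85 and 0.08. IL18, a substrate of caspase-1, had log2 ratios of -0.42 and -0.53 with a log2 fold change of -0.47 (SE 0.25, adjusted p = 0.888 in edgeR), IL1B was between 0.114 and 0.203 FPKM, and NINJ1, which ruptures the membrane after pore formation, had log2 ratios of 0.11 and -0.25.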

How the data were processed

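The authors deposited 1 table per experiment, each with a control and a Myc-TRIM40 library. Per the file headers, the tables hold an estimated count of reads for each RefSeq transcript (whole numbers, not normalized), FPKM (scaled by the authors to the transcript's length and the library's total) and, in experiment 2 alone, TPM. The other deposited values used were transcript lengths in bases. The submitters' processing notes name HISAT2 2.1.0, StringTie 1.3.4d and hg19, without giving their roles. The library kit marks strand.

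Transcripts were summed per gene ID. The main test was edgeR 4.0.16 (glmQLFit and glmQLFTest, R 4.3.3) with TMM factors, filterByExpr, a block for the experiment number and Benjamini-Hochberg adjustment. Libraries were paired by the experiment numbers of the labels and by the files, which hold 1 pair each. Same-numbered libraries deviated together from their condition means (correlation 0.449 across 14868 genes, which are not independent). The common dispersion was 0.0484, and 2 libraries per condition limit the precision. For experiment 1, TPM was computed from FPKM. The code was tested on simulated counts.

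Within an experiment, ratios of reads have exact binomial intervals at 95%, for counting error only. Alternatives were no block, DESeq2 1.42.0, limma 3.58.1 on log2(FPKM + 1), upper-quartile or no normalization factors, no filter, summed overlapping genes, each library or experiment left out, and, for 1.5-fold counts, a pseudocount of 0.1, 2-fold, TPM, TMM reads, centering and crossed pairing. The 9 genes and the pathway lists were chosen with earlier results of these data known. Named were the 9 genes, TRIM40, genes overlapping the 9 with at least 10 reads, 20 direct partners whatever their values, and other pathway genes with an adjusted p under 0.05 in either tool or past 1.5-fold in both experiments. CDX1, the leukocyte markers, FASLG, TNFRSF10D, TNFAIP3, CYLD, IL1RN, GBP1, TRPM7 and BBC3 were named after their values were seen. Some results that this rule covers are not reported here.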

Additional observations from a re-analysis of the deposited data

Results flagged for a closer look

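Of the 9 genes, 5 had log2 ratios of opposite sign in the 2 experiments on TMM-normalized reads, above 0 in experiment 1 and below 0 in experiment 2. The difference between the experiments was 1.57 for CASP1, 0.58 for GSDMD, 0.55 for FAS, 0.28 for MLKL and 0.24 for CASP8. The difference was not tested, because an experiment holds only 1 library of each condition. For CASP8 and MLKL the ratio of experiment 2 was above 0 on FPKM + 1, and for CASP1 the control of experiment 1 held 22 reads.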

How the results depend on the processing

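With the experiment number as a replicate block, edgeR called 6 genes higher and 3 lower over all genes and 0 of the 9 genes. With no replicate block it called 0 and 0 (128 and 25 at an unadjusted p under 0.05), DESeq2 called 45 and 9, no filter gave 0 and 0 (343 and 104), limma 3 and 0 (134 lower unadjusted) and summed overlapping genes 10 higher. Leaving out 1 library, without the block, gave between 2 higher (without the control of experiment 2) and 88 higher (without Myc-TRIM40 of experiment 2), and between 0 lower (without the control of experiment 2, 23 unadjusted) and 18 lower (without either Myc-TRIM40 library). Of the 9 genes, 0 passed under any of these fits. Of the other pathway genes, 1 passed in DESeq2 (BIRC3) and between 0 and 2 with 1 library left out (BIRC3 and TNFAIP3 without Myc-TRIM40 of experiment 2).

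GSDMD reversed to 0.0044 with no normalization factors and 0.0051 with limma, and leaving out 1 library or experiment gave -0.36 to 0.21 for it. By the same omissions FAS ranged from -0.30 to 0.37, CASP1 from -0.16 to 1.41, CASP8 from -0.21 to 0.37 and MLKL from -0.093 to 0.18.

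For 1.5-fold changes in both experiments, TPM gave 1 of the 9 genes (TNFSF10). For the other pathway genes a pseudocount of 0.1 gave 3, TPM 2, TMM reads 1 and crossed pairing 2 (BIRC3 and BBC3), and 1 experiment counted alone gave between 4 and 11, against 0. The causes were not tested. With 22 to 60 reads, CASP1 had the widest counting intervals of the 9 genes.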
